A study of Mus musculus with 9 samples.

Results

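The 9 RNA-seq libraries of this mouse mammary tumour series, all from lines of the MMTV-neu model, were divided by the level of Epcam, a cell adhesion protein of epithelial cells. The 4 libraries with Epcam at 100 FPKM or more (fragments scaled to transcript length and to the mapped fragments of the library) are called epithelial here, and the 5 below it mesenchymal, whatever their Jak1 status. All 9 of the 9 libraries of the series were used. The epithelial libraries came from lines 45566B (wild type and knockout for Jak1), 33373 (wild type) and 46295 (knockout), and the mesenchymal ones from lines 45555 and 47298 (wild type and knockout of each) and 33377 (wild type). Below, wild type and knockout mean the Jak1 status the labels give. In the library titles the knockouts of 45566B, 45555 and 47298 are marked Cre and their wild types Wt. The knockout 46295 is marked D6 instead.

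All 9 libraries were from tumour-derived lines of FVB/N mice, grown as attached cells, and their medium contained hydrocortisone, insulin, EGF and serum. Lines 45555, 47298 and 45566B had also been treated with puromycin, which puts 2 of the 4 epithelial and 4 of the 5 mesenchymal libraries in treated lines. In the MMTV-neu model a mammary tumour virus promoter drives the neu oncogene, the rat form of Erbb2, in mammary epithelium, so the tumours arise in that epithelium. The labels do not say whether a line is 1 clone, nor whether the libraries of a line came from separate cultures, so the p-values given further on measure only the spread between these libraries.

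Epithelial cells hold to their neighbours through adherens junctions, desmosomes and tight junctions, and carry a keratin skeleton. In the epithelial-mesenchymal transition (EMT) these genes are shut off, in part by repressors of the Zeb, Snail and Twist families, and vimentin, collagens and other matrix genes come on. The process is reversible and often partial, and neu-induced mammary tumour cells are a classic model of it.

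Epcam itself only defines the classes. It was at 720.1, 681, 419.8 and 524 FPKM in the epithelial libraries and at 0.169, 0.423, 0.324, 0.581 and 2.36 FPKM in the mesenchymal ones. Values are listed in this order throughout, 45566B wild type, 45566B knockout, 33373 and 46295 for the epithelial class, then 45555 wild type, 45555 knockout, 47298 wild type, 47298 knockout and 33377 for the mesenchymal class. The library just inside the threshold was 33373, at 419.8 FPKM, and the one just outside was 33377, at 2.36 FPKM. Because a measured value set the classes, differences between them are descriptions and were not tested. Held against other markers, the names fit in part: E-cadherin, claudins and vimentin were separated by class, but 3 mesenchymal libraries held Krt8 and Krt18 and 1 epithelial library, 33373, held much fibronectin, so the names stand for the Epcam level only.

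A library held 10821 to 11622 genes at 1 FPKM or more, and its summed FPKM was 567403 to 721751. FPKM carry no read counts, so the depth behind a value is unknown. Across genes, the 2 libraries of 1 line had Spearman correlations of 0.828 to 0.944, libraries of different lines in the same class 0.777 to 0.888 and libraries of different classes 0.611 to 0.830. These are correlations across genes, which are not independent replicates. The highest between-class value joined 33373 and 47298 knockout, and it exceeded the 0.828 between the wild type and knockout of line 47298.

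A gene was counted as separated where every library of 1 class lay above every library of the other and the class means differed by at least 1 on the log2(FPKM + 1) scale. Of 12197 genes whose mean over the 9 libraries reached 1 FPKM, 821 (6.73%) were separated and higher in the epithelial libraries and 635 (5.21%) were separated and lower, together 11.9%. The classes were cut along the same values, so these shares are the background for the counts of gene lists below, and nothing is read from them. Without 33373 the lower genes numbered 982, and without both 33373 and 33377, whose columns are named differently from the other 7, the counts were 1140 higher and 1159 lower. With fewer libraries the no-overlap condition is easier to meet, whichever are left out. The median difference over all tested genes was -0.02.

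**Figure D1:**
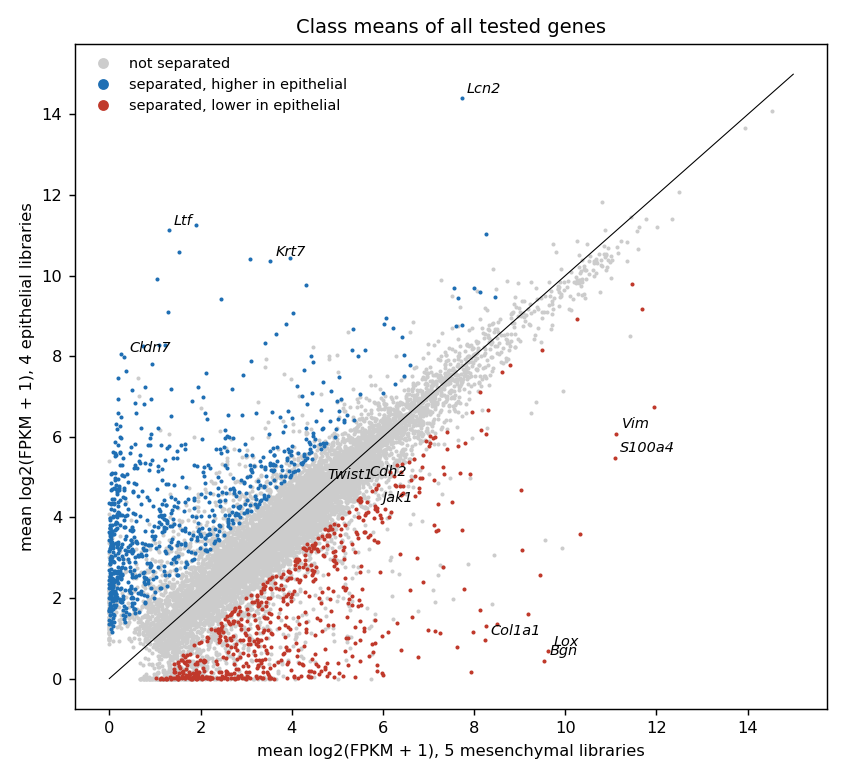
Mean log2(FPKM + 1) of each tested gene in the 5 mesenchymal libraries (x axis) and the 4 epithelial libraries (y axis), with the line of equal means. Blue points are the 821 separated genes higher in the epithelial libraries, red points the 635 lower ones and grey points the genes that were not separated, among them Cdh2 and Twist1.

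Of the 12 largest differences in favour of the epithelial libraries, the first was in lactoferrin. Lactoferrin (Ltf), an iron-binding milk and defence protein, was at 2004, 1433, 6933 and 1279 FPKM in the epithelial libraries and 1.22, 1.13, 0.901, 1.38 and 3.21 FPKM in the mesenchymal ones, a difference of 9.84 on the log2(FPKM + 1) scale. The milk protein kappa-casein (Csn3) was at 3623, 1081, 835 and 1734 against 0.79, 1.04, 0.634, 1.16 and 14.4 FPKM. In both genes 33377 was the highest of the mesenchymal libraries, and it was still far below every epithelial one. Pglyrp1 (peptidoglycan recognition, difference 9.36), Wfdc18 (8.87), Fxyd3 (a regulator of the sodium pump, 7.82), Sftpd (a collectin of mucosal defence, 7.79), Csf3 (the granulocyte growth factor G-CSF, 7.53), Wfdc2 (7.32), Slc39a4 (a zinc importer, 7.27) and S100a8 (a calprotectin subunit, 7.18) were also among the 12 largest, together with the claudins Cldn7 and Cldn4. Csf3 was at 727, 381, 263 and 121 FPKM in the epithelial libraries and at most 1.70 FPKM in the mesenchymal ones. Lipocalin 2 (Lcn2), which binds bacterial siderophores, was one of the most abundant transcripts of the epithelial libraries at 28690.5, 19954, 27898 and 13657 FPKM. It was at 13.6, 15.7, 369, 816 and 5780.3 FPKM in the mesenchymal libraries, a wide spread in which 33377 came nearest to the epithelial class.

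Of the 12 largest differences the other way, the first was in biglycan. Biglycan (Bgn), a proteoglycan that binds collagen, was at 0.345, 0.202, 0.739 and 0.214 FPKM in the epithelial libraries and 2587, 2150.4, 3307, 194 and 61.7 FPKM in the mesenchymal ones, a difference of -9.09. Lysyl oxidase (Lox), which crosslinks collagen, was at 0.165, 0.129, 3.10 and 0.232 against 1238, 1076, 1518, 68.8 and 2102 FPKM (-8.93). No epithelial library reached 1 FPKM of biglycan, while 33373 alone held some Lox. Col3a1 (-7.78), Col6a1 (-7.56), Col1a1 (-7.30), Col6a2 (-7.15), Serpinf1 (-6.97), the basement membrane glycoprotein Fbln2 (-6.87), Aldh1a7 (-6.83), Fstl1 (-6.82), the collagen-binding protein Sparc (-6.73) and the retinaldehyde dehydrogenase Aldh1a1 (-6.42) completed the 12. Aldh1a1 was at 0.386, 0.564, 18.6 and 1.73 FPKM in the epithelial libraries and 169, 249, 573, 1635 and 42.4 FPKM in the mesenchymal ones, highest in 47298 knockout.

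E-cadherin and several desmosome genes were high in all 4 epithelial libraries. E-cadherin (Cdh1, chromosome 8, 106603351 to 106670246, plus strand of GRCm38), the calcium-dependent adhesion molecule of epithelia, was at 162, 135, 134 and 168 FPKM there and at 0.062, 0.121, 0.21, 0.277 and 7.02 FPKM in the mesenchymal libraries. On the log2 scale this was 7.23 ± 0.17 (SD, n = 4) against 0.78 ± 1.25 (SD, n = 5). Line 33377 was the only mesenchymal one with more than 1 FPKM of Cdh1. Of the 16 listed genes 13 passed the filter, 8 were separated and higher and none was lower, with a median difference of 2.35 over all 16. The desmosomal cadherins Dsg2 (40.9, 38.7, 17.5 and 39.6 against 0.019, 0, 0.269, 0.715 and 0.19 FPKM) and Dsc2 (10.7 to 47.1 against 0.133 to 1.78 FPKM), the linker desmoplakin (Dsp, 23.9 to 50.4 against 0.184 to 1.00 FPKM) and plakophilin 3 (Pkp3, 29.4 to 45.3 against 0 to 3.14 FPKM) were among the 8.

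Other genes of the list were not separated. The cadherins Cdh3 and Dsc3 were at 0.254 and 0.033 FPKM or less in every library. Plakophilin 2 (Pkp2) was at 12.5, 15.4, 13.7 and 17.2 FPKM in the epithelial libraries and 9.34, 11.2, 9.33, 12.1 and 7.95 FPKM in the mesenchymal ones, without overlap but with a difference of only 0.52. Perp, a tetraspan desmosomal protein, was at 186, 201, 153 and 151 against 0.154, 0.093, 29.6, 163 and 152 FPKM. It was near 0 in both 45555 libraries and at epithelial levels in 47298 knockout and 33377, which overlapped the epithelial class.

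Tight junction and polarity genes were the list with the most separated members. Of 22 listed genes 21 passed the filter, 19 were separated and higher, and the median difference over all 22 was 3.32. The claudins, which form the paracellular seal, had the largest differences: Cldn7 was at 372, 310.0, 163 and 206 FPKM in the epithelial libraries and 0.067, 0.106, 0.154, 0.401 and 0.646 FPKM in the mesenchymal ones, and Cldn4 at 160.2, 135, 332 and 211 against 0.098, 0.195, 0.225, 0.28 and 0.77 FPKM. Cldn3 was at 374, 335, 205 and 368 against 0.247, 0.222, 1.89, 5.64 and 1.35 FPKM. In all 3 claudins the classes were far apart, although 33373 was lowest of its class for Cldn7 and Cldn3 and highest for Cldn4. The tricellular junction receptors Lsr (74.4 to 159 against 0.244 to 1.52 FPKM) and Ildr1 (62.0 to 92.1 against 0 to 0.284 FPKM), the polarity protein Crb3 (18.1 to 41.7 against 0 to 0.189 FPKM) and occludin (Ocln, 12.8 to 24.5 against 0 to 0.074 FPKM) had the same order. The scaffold Tjp1, which non-epithelial cells also use, overlapped, at 41.6, 39.7, 78.4 and 62.9 against 16.6, 15.4, 21.6, 42.1 and 33.0 FPKM.

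The promoters of several of these genes hold the E-box CACCTG, which reads CAGGTG on the opposite strand and is the 6-base sequence that Zeb and Snail proteins bind. It was searched on both strands of the 250 bases before each RefSeq start on GRCm38.p6, and 5 promoters of separated higher genes with a match and 1 of a separated lower gene without one are shown because they put these letters in context. They were chosen after their matches were seen. Crb3 and Cldn7 have 2 windows each, and the window with the most matches is shown. In both, the start shown lies inside the gene, which begins at 57059105 for Crb3 and 69964779 for Cldn7. Crb3 (chr17:57061951-57062200, plus strand) holds 3 matches, the nearest beginning 7 bases before the start. Lsr (chr7:30973470-30973719, minus strand) holds 4, Cldn7 (chr11:69965171-69965420, plus strand) 2, Cldn4 (chr5:134946935-134947184, minus strand) 1 and Rab25 (chr3:88548280-88548529, minus strand) 2. Col3a1 (chr1:45311288-45311537, plus strand) holds none. Each is written 5′ to 3′ along its gene, and capitals mark the matches.
Crb3: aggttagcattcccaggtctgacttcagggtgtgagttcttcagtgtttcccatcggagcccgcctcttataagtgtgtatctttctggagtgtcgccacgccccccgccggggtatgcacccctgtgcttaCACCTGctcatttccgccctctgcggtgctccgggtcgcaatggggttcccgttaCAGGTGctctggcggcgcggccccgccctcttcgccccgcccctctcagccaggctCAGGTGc
Lsr: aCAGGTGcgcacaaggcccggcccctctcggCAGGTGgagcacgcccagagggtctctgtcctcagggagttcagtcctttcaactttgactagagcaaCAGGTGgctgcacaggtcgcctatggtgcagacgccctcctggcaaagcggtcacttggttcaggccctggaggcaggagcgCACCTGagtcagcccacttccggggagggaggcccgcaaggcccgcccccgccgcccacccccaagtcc
Cldn7: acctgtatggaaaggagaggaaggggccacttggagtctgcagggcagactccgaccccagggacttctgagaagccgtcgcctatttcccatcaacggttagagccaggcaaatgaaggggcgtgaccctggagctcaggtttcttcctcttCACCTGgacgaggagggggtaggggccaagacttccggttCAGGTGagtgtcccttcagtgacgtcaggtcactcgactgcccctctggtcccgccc
Cldn4: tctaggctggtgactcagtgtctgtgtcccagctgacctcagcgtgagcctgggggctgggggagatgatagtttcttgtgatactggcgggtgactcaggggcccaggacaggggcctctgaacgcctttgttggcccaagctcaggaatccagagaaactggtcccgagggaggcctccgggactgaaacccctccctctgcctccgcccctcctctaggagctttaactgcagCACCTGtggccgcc
Rab25: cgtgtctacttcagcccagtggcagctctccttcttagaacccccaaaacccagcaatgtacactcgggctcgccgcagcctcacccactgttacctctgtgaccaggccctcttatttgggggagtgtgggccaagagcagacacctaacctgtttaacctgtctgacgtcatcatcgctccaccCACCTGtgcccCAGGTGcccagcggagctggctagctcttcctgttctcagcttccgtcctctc
Col3a1: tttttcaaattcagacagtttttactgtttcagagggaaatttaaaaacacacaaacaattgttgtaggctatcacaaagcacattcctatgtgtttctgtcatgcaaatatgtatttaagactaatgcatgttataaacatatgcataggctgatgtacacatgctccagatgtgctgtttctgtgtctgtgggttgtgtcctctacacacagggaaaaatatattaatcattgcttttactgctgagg

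Of the separated genes with a promoter in the RefSeq table, CACCTG was present for 209 of 578 higher genes (36.2%) and 68 of 468 lower genes (14.5%). It was present for 1340 of 8037 tested genes that were not separated (16.7%) and for 5252 of 27025 genes in the whole table (19.4%). A gene counts once if any of its windows holds a match, and by window the shares were 28.3, 13.2, 14.3 and 17.2%. Next to it, 4 other E-boxes were counted on both strands, and no 6 bases can match more than 1 of the 5. CAGCTG was present for 18.0% of the higher, 15.2% of the lower and 13.5% of the not separated genes, CACGTG for 7.79, 7.48 and 10.4%, and CATATG for 1.73, 1.71 and 1.70%. CAGATG had its highest share in the lower genes, at 13.7, 17.9 and 11%. A further sequence that is not an E-box, AACNNGTT (N is any base), was also counted, at 3.63, 3.21 and 3.57%. Mean GC content was alike, at 59.5, 60.2 and 60.1%. Of the separated tight junction genes 9 of 13 with a promoter held CACCTG (Cldn4, Cldn7, Crb3, F11r, Ildr1, Lsr, Ocln, Pard6b and Tjp3). Among separated genes with a promoter, so did 4 of 5 keratins, 6 of 11 surface genes and 2 of 5 epithelial transcription and splicing factors. Of the adherens junction and desmosome genes 0 of 2 did. These 5 lists hold 19, 6, 16, 10 and 8 separated higher genes, and those without a promoter in the RefSeq table were not searched. Of the separated lower collagen genes with a promoter, 1 of 7, Col16a1, held CACCTG. A match is a description of the letters and not a bound site, the classes were chosen on these data, and no share was tested.

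Epithelial surface, secretory and trafficking genes were mostly separated. Of 18 listed genes 16 passed the filter and all 16 were separated and higher, and the median difference over all 18 was 4.85. Rab25, a GTPase of apical recycling, was at 83.3, 84.6, 65.3 and 132 FPKM in the epithelial libraries and at most 0.555 FPKM in the mesenchymal ones. The protease inhibitor Spint1 was at 78.0 to 144 against 0.095 to 1.26 FPKM. Its relative Spint2 was at 586, 465, 330.5 and 443 against 0.435, 0.326, 29.1, 188 and 61.6 FPKM, under 1 FPKM in both 45555 libraries and at 29.1 FPKM or more in 47298 and 33377. The surface glycoprotein Cd24a showed the same staircase, at 429, 431, 441 and 338 against 6.21, 9.01, 60.8, 271 and 90.4 FPKM, with 47298 knockout nearest to the lowest epithelial library, 46295.

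Keratins of simple epithelium were high in the epithelial libraries and graded in the mesenchymal ones. Krt8 was at 479, 626, 620.0 and 447 against 0.458, 0.637, 38.5, 157 and 74.9 FPKM, and its partner Krt18 at 796, 854, 721 and 1193 against 0.57, 0.985, 52.7, 250.3 and 74.8 FPKM. Krt7 was at 1136, 1349, 1231 and 1596 against 3.34, 5.14, 17.1, 76.3 and 4.59 FPKM. The 45555 libraries held under 1 FPKM of Krt8 and Krt18, whereas 47298 knockout, 33377 and 47298 wild type held intermediate levels. Of the 13 listed keratins 7 passed the filter and 6 were separated and higher, and the median difference over all 13 was 0.52. The basal keratin Krt14 was low and uneven, at 3.57, 6.39, 30.8 and 1.76 FPKM in the epithelial libraries and at most 0.165 FPKM in the mesenchymal ones. Krt5, its basal partner, was at 0.088 FPKM or less in every library. Krt19 went the other way without separating, at 0, 0, 0.253 and 0 against 5.37, 4.70, 5.97, 0.307 and 0.027 FPKM.

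**Figure D2:**
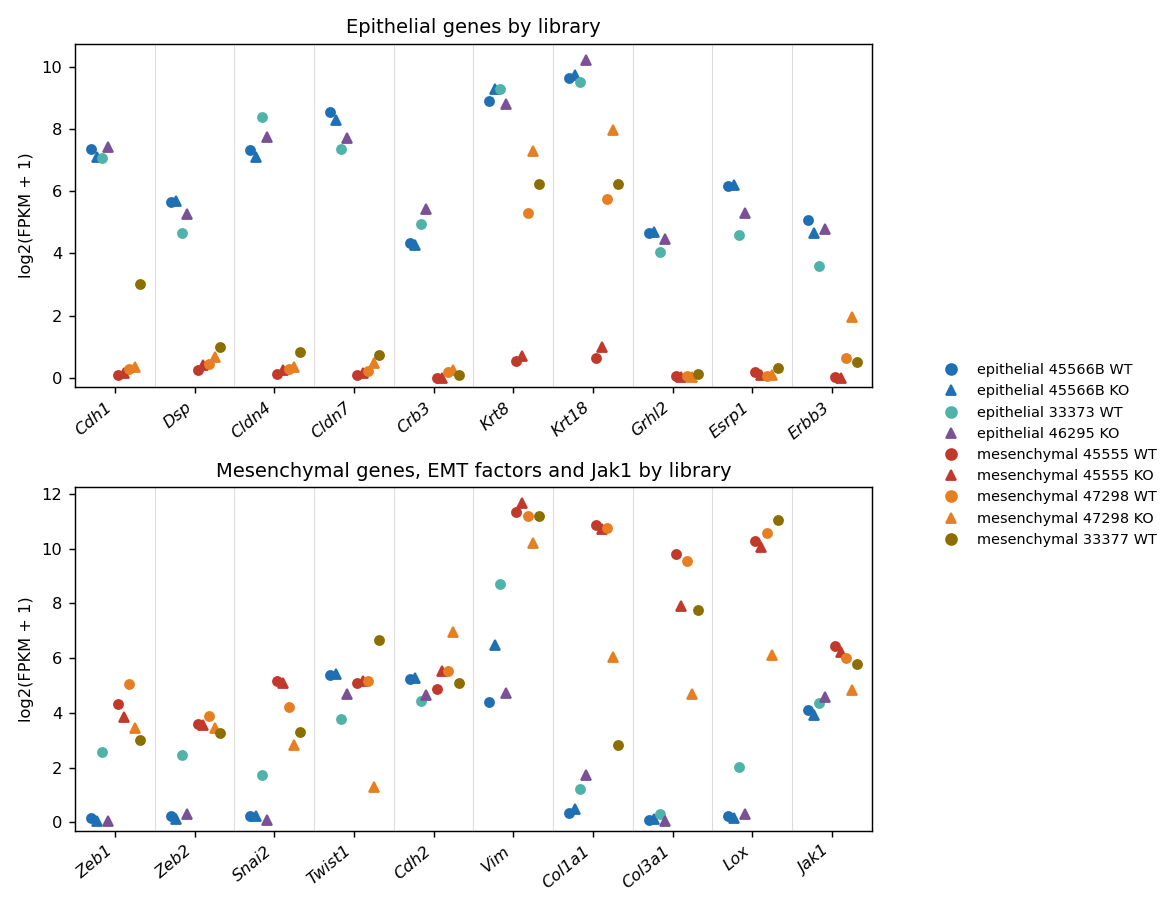
Level of 10 epithelial genes (upper panel) and 10 mesenchymal genes, EMT factors and Jak1 (lower panel) in each library, as log2(FPKM + 1). Circles are wild type and triangles knockout libraries, colours are lines, and within each gene the 4 epithelial libraries stand left of the 5 mesenchymal ones. Cdh1, Cldn4, Cldn7 and Grhl2 leave a wide gap between the classes, Krt8 and Krt18 are graded among the mesenchymal libraries, and Twist1 and Cdh2 overlap.

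Most transcription and splicing factors of epithelial identity were higher in the epithelial libraries, and several were near 0 in the others. Grhl2 (chromosome 15, 37233036 to 37363569, plus strand), which activates junction genes, was at 24.0, 25.0, 15.4 and 21.0 FPKM against 0.033, 0.017, 0.034, 0.028 and 0.094 FPKM. Esrp1 (chromosome 4, 11331933 to 11386783, minus strand), a splicing factor of epithelial isoforms, was at 70.1, 72.2, 22.9 and 38.1 against 0.139, 0.063, 0.043, 0.06 and 0.236 FPKM. The ETS factors Elf5, which drives alveolar differentiation, and Ehf were at 28.9, 24.9, 84.0 and 80.8 and 72.2, 58.4, 83.4 and 42.2 FPKM in the epithelial libraries and at most 0.284 and 3.32 FPKM in the mesenchymal ones. For Grhl2 and Esrp1 33373 was the lowest of the epithelial class. Of 15 listed genes 12 passed the filter, 10 were separated and higher and 1 lower, with a median difference of 2.55 over all 15. Ovol2 was at 8.02, 8.06, 3.49 and 10.0 FPKM in the epithelial libraries and at most 0.039 FPKM in the others, while Ovol1 stayed under 1 FPKM in all 9 and did not pass the filter. Klf5, a factor of proliferating epithelia, overlapped, at 15.4, 16.9, 23.3 and 11.2 against 3.41, 3.92, 7.60, 9.13 and 15.2 FPKM. The lower gene was Klf4, a zinc-finger factor of differentiated epithelia and of stem cells, at 0.642, 0.687, 11.8 and 0.617 FPKM in the epithelial libraries and 44.8, 28.5, 20.0, 12.2 and 22.2 FPKM in the mesenchymal ones, where 33373 and 47298 knockout nearly met.

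Luminal mammary factors and hormone receptors were divided. Of 13 listed genes 8 passed the filter, 3 were separated and higher (Tfap2c, Prlr and Foxa1), none was lower, and the median difference over all 13 was 1.05. Tfap2c, a luminal AP-2 factor, was at 40.6, 35.9, 21.5 and 37.2 against 0.02, 0.03, 0, 0.035 and 2.53 FPKM, and the prolactin receptor Prlr at 25.4, 15.1, 41.4 and 12.1 against 0.021, 0.016, 0.107, 0.169 and 0.094 FPKM. Gata3, the leading luminal factor, overlapped, at 28.2, 27.6, 35.2 and 38.4 against 2.30, 2.1, 5.25, 36.4 and 42.3 FPKM. It was low in the 45555 libraries and 47298 wild type, and at epithelial levels in 47298 knockout and 33377.

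Among the EMT transcription factors, the repressors Zeb1 and Zeb2 were separated. Zeb1 was at 0.122, 0.046, 4.88 and 0.021 FPKM in the epithelial libraries and 18.9, 13.5, 32.3, 9.91 and 7.12 FPKM in the mesenchymal ones, and Zeb2 at 0.165, 0.093, 4.56 and 0.235 against 10.9, 10.6, 13.8, 9.93 and 8.56 FPKM. The Snail family repressor Snai2 was at 0.175, 0.183, 2.28 and 0.065 against 35.0, 32.9, 17.7, 6.17 and 8.93 FPKM, and Twist2 at 0, 0, 0.802 and 0 against 22.4, 35.9, 22.2, 0.811 and 26.3 FPKM. In each of the 4, 33373 was the highest of the epithelial libraries, and for Twist2 it stopped just short of 47298 knockout. Of 16 listed genes 14 passed the filter, 6 were separated and lower in the epithelial libraries (also Prrx2 and Foxc2), none was higher, and the median difference over all 16 was -1.39. Without 33373 and 33377 the Zeb1 difference was -4.08 and the Zeb2 difference -3.40, against -3.24 and -2.76 with them.

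Other factors linked to EMT did not follow the classes. Twist1 was at 40.8, 42.2, 12.5 and 25.0 FPKM in the epithelial libraries and 33.1, 34.7, 34.6, 1.45 and 99.2 FPKM in the mesenchymal ones, with its lowest value in 47298 knockout. Snai1 was at 1.80, 3.67, 2.45 and 6.34 against 26.3, 35.6, 31.9, 0.845 and 24.9 FPKM, so that 4 mesenchymal libraries were above all epithelial ones and 47298 knockout was below them. The homeobox factor Prrx1 was at 0.142, 0.131, 5.07 and 0.044 against 87.6, 91.8, 159, 10.1 and 4.88 FPKM, and only 33373 and 33377 met. The miR-200 family, which represses Zeb1 and Zeb2, could not be followed: of 6 listed genes 5 were listed at 0 in all 9 libraries and Mir429 had a value in 45566B wild type alone. Libraries primed with oligo-dT are not made to capture mature microRNAs.

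Of the 18 genes of mesenchymal adhesion and cytoskeleton, all passed the filter, 6 were separated and lower in the epithelial libraries and none was higher, with a median difference of -2.67. Vimentin (Vim, chromosome 2, 13573927 to 13582826, plus strand), the intermediate filament of mesenchymal cells, was at 20.2, 88.5, 416 and 25.1 against 2595, 3218, 2352, 1189 and 2315 FPKM. The calcium-binding protein S100a4 was at 59.3, 91.0, 12.1 and 53.3 against 4353, 4942, 2602, 548 and 1599 FPKM, and galectin 1 (Lgals1) at 290.3, 508, 598 and 1252 against 5391, 5486, 2856, 1958 and 2316 FPKM. Vimentin was never absent from the epithelial libraries, and in 33373 it reached 416 FPKM, still under the lowest mesenchymal value. Several usual markers of the mesenchymal state were not separated. N-cadherin (Cdh2) was at 36.9, 37.7, 20.5 and 24.0 against 28.5, 45.0, 45.2, 123 and 33.0 FPKM, and the hyaluronan receptor Cd44 at 98.5, 76.5, 75.1 and 73.2 against 32.3, 53.0, 35.7, 96.9 and 62.7 FPKM. Fibronectin (Fn1) was at 63.0, 77.7, 865 and 87.3 against 982, 396, 1074, 1031 and 2211 FPKM, so that 33373 was the only epithelial library within the mesenchymal range.

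**Figure D3:**
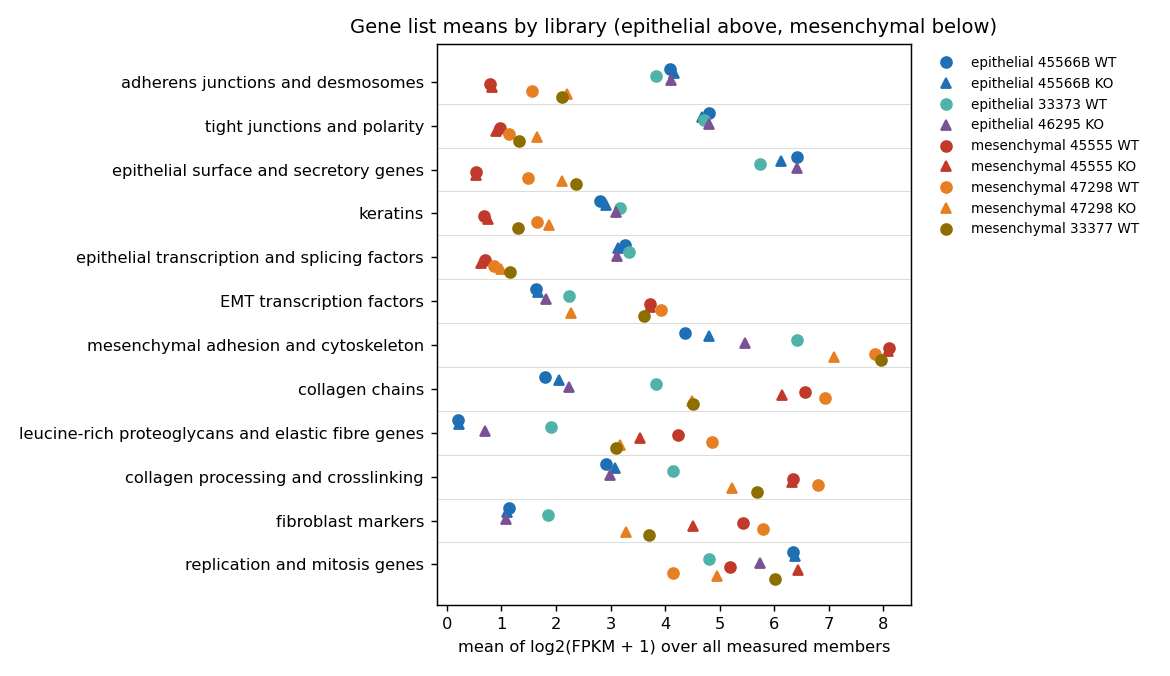
Mean log2(FPKM + 1) over all measured members of 12 gene lists (rows) in each library, with circles for wild type, triangles for knockout and colours for lines. In each row the epithelial libraries are drawn above the mesenchymal ones. The tight junction means were 4.68 to 4.80 in the epithelial and 0.91 to 1.65 in the mesenchymal libraries, and the collagen means 1.80 to 3.83 against 4.49 to 6.93.

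Several collagen chains, among them those of types I, III and VI, were near 0 in 45566B and 46295 and high in most mesenchymal libraries. Col1a1 (chromosome 11, 94936224 to 94953042, plus strand), the main chain of type I collagen, was at 0.271, 0.409, 1.32 and 2.35 against 1879, 1675, 1728, 65.5 and 6.12 FPKM, and Col3a1 at 0.073, 0.089, 0.246 and 0.044 against 883, 241, 738, 24.7 and 213 FPKM. Col6a1, of the microfibrillar type VI collagen, was at 0.116, 0.088, 66.4 and 0.062 against 866, 279, 1410.4, 255 and 731 FPKM. The 45555 libraries and 47298 wild type held most type I collagen, 33377 held little of it, and 33373 was the only epithelial library with more than 1 FPKM of Col6a1. Col1a2, the partner chain of Col1a1, overlapped, at 0.325, 0.209, 85.6 and 0.189 against 2174, 1915, 2509.9, 94.3 and 3.25 FPKM. Of 20 listed chains 19 passed the filter, 9 were separated and lower and 1 higher, and the median difference over all 20 was -2.48. The fibrillar chains Col5a2 (10.9, 19.8, 58.3 and 4.83 against 277, 314, 221, 14.7 and 32.5 FPKM) and Col11a1 (8.94, 23.1, 42.5 and 81.9 against 133, 72.1, 54.8, 63.8 and 43.0 FPKM) were present in all 9 libraries and overlapped. The higher one was Col18a1, a basement membrane collagen, at 241, 276, 181 and 369.9 against 67.7, 41.7, 86.7, 7.95 and 66.9 FPKM.

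Proteoglycan, elastic fibre and collagen-processing genes had the same direction as the collagens. Of 16 proteoglycan and elastic fibre genes 12 passed the filter and 8 were separated and lower (median difference over all 16, -1.59), among them fibrillin 1 (Fbn1, 0.038 to 5.10 against 7.46 to 278 FPKM) and osteoglycin (Ogn, 0.032 to 9.72 against 28.7 to 297 FPKM). Of 16 collagen-processing genes all passed and 7 were separated and lower (median -2.12). Pcolce, which enhances procollagen cleavage, was at 3.48, 5.29, 28.6 and 7.48 against 995, 595, 1074, 104 and 622 FPKM, and the prolyl hydroxylase subunit P4ha1 at 18.0, 15.8, 41.1 and 27.8 against 168, 109, 147, 85.7 and 70.7 FPKM. Within the mesenchymal class Lox was at 1076 FPKM or more in 4 libraries and at 68.8 FPKM in 47298 knockout, which was also the lowest of its class for Fbn1 and Col3a1.

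Matrix proteases were less clearly divided. Of 19 listed genes 16 passed the filter, 2 were separated and higher (Mmp15 and Mmp13) and 2 lower (Mmp2 and Serpinf1), with a median difference over all 19 of -1.37. The gelatinase Mmp2 was at 2.09, 0.726, 1.07 and 3.13 against 221, 96.1, 364, 41.3 and 8.69 FPKM, and the membrane-bound Mmp15 at 10.6, 8.42, 10.1 and 41.0 against 0.051, 0.087, 0.246, 1.33 and 1.26 FPKM. The inhibitor Timp1 overlapped, at 0, 0.268, 252 and 14.6 against 225, 677, 304, 279.8 and 383 FPKM, and 33373 held a mesenchymal level.

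Laminins and integrins traded members between the classes. Lamb3, a laminin chain of the epithelial basement membrane, was higher in the epithelial libraries, at 100.5, 109, 54.4 and 137 against 0.069, 0.062, 0.421, 2.38 and 0.416 FPKM. Nid1, Hspg2 (perlecan), Nid2, Lama2 and Lamc1 were lower. Nidogen 1 (Nid1) was at 0.15, 0.094, 7.88 and 1.08 against 249, 696, 702, 33.0 and 18.6 FPKM. Of 13 listed genes 11 passed the filter, 1 was higher and 5 lower, and the median difference over all 13 was -0.61. Lama5 overlapped, at 33.8, 31.6, 31.4 and 39.5 against 0.23, 0.144, 3.03, 19.2 and 34.3 FPKM, with 33377 at an epithelial level.

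Of 18 integrin chains 16 passed the filter, 5 were separated and higher and 1 was lower, with a median difference of 0.33. Itgb4, the hemidesmosome chain, was at 108, 103, 42.3 and 53.6 against 0.18, 0.095, 3.76, 25.5 and 40.3 FPKM. Itga3, a laminin receptor chain, was at 197, 203, 169 and 248 against 1.22, 1.18, 25.4, 169 and 120.1 FPKM. Both were near 0 in the 45555 libraries and close to the epithelial class in 47298 knockout and 33377. The fibronectin receptor chain Itga5 was the lower one, at 0.403, 0.866, 30.2 and 4.29 against 129.9, 212, 77.2, 56.5 and 66.8 FPKM. Itgb1, the shared beta chain, was alike, at 387, 406, 352 and 423 against 286, 381, 351, 720.5 and 246 FPKM.

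Receptors of growth factors differed by family. Of 14 ErbB genes 11 passed the filter, 4 were separated and higher and none lower (median difference over all 14, 0.57). Erbb3, the kinase-impaired partner of Erbb2, was at 32.8, 24.5, 11.1 and 26.8 against 0.014, 0, 0.557, 2.85 and 0.424 FPKM. The Egfr ligands Areg (74.5, 84.1, 13.7 and 24.8 against 0.369, 0.868, 2.30, 7.22 and 7.77 FPKM) and Tgfa (22.2, 21.0, 12.9 and 15.6 against 0.078, 0.234, 1.22, 3.04 and 2.65 FPKM) were higher too, and Btc was the fourth. Egfr itself overlapped, at 12, 11.8, 14.3 and 7.81 against 17.2, 8.89, 50.2, 23.2 and 19.6 FPKM. Erbb2, the gene that the model's transgene is the rat form of, was at 335, 264, 159.8 and 314 against 7.84, 9.47, 37.6, 243 and 19.7 FPKM. It was low in 4 mesenchymal libraries and at an epithelial level in 47298 knockout, and the values do not tell the mouse gene from the transgene.

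Of 28 other receptor tyrosine kinases and ligands 25 passed the filter, 3 were separated and higher (Kit, Epha1 and Met) and 6 lower (Pdgfrb, Pdgfra, Ddr2, Axl, Fgf10 and Igf1r), with a median difference of -0.32. The PDGF receptors, which act in stromal cells, were at 0.019, 0.014, 24.3 and 0.022 against 154, 98.2, 231, 120.1 and 129 FPKM for Pdgfrb and 0.375, 0.578, 6.95 and 0.386 against 143, 41.3, 373, 22.4 and 29.7 FPKM for Pdgfra. Among the epithelial libraries 33373 had the highest level of both. The collagen receptor Ddr2 was at 0.036, 0.027, 0.306 and 0.376 against 83.3, 83.7, 100.0, 3.19 and 3.40 FPKM. Kit, the receptor of mammary progenitors, was at 18.7, 11.5, 20.5 and 6.41 against 0.011, 0, 0.153, 0.036 and 0.045 FPKM. The hepatocyte growth factor receptor Met was just separated, at 31.8, 32.9, 33.3 and 28.2 against 1.57, 3.76, 5.36, 19.1 and 28.1 FPKM, and Axl, often named with EMT, was at 51.1, 55.0, 144 and 2.06 against 155, 238, 236, 356 and 246 FPKM.

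TGF-beta and BMP genes, the pathway best known as an inducer of EMT, were mostly not separated: of 25 listed 21 passed the filter, 2 were lower in the epithelial libraries (Id3 and Tgfbi), none was higher, and the median difference was -0.31. Id3, a target of BMP signals, was at 3.44, 9.83, 55.3 and 13.6 against 102, 193, 171, 127 and 117 FPKM. Of 25 Wnt pathway genes 17 passed, 3 were higher (Wnt5b, Wnt7b and Tcf7) and 3 lower (Ror2, Wnt6 and Ror1), with a median of -0.24. The ligand Wnt7b was at 82.0, 89.0, 87.7 and 85.4 against 0.083, 0.062, 5.47, 40.1 and 4.40 FPKM, with almost no spread in the epithelial class, and Wnt5b at 22.5, 21.8, 46.3 and 42.5 against 0.055, 0.082, 0.189, 0.023 and 1.14 FPKM.

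Markers of other cell types that a tumour culture could hold moved with the classes in part. In bulk RNA, fewer cells of a type and less RNA per cell cannot be told apart. Of 14 fibroblast markers, several of which are also matrix or EMT genes of the lists above, 8 were separated and lower in the epithelial libraries. Their summed level was 187.9 to 578 FPKM there and 842 to 8373 FPKM in the mesenchymal libraries. Of these, Lum, Pi16 and Fap were at most 0.24, 0.334 and 0.931 FPKM in any library, while Thy1 was at 0.016, 0, 0.086 and 0.076 against 34.6, 20.7, 42.0, 0.44 and 0.497 FPKM. Among the epithelial libraries decorin (Dcn) was at 78.3 FPKM in 33373 and listed at 0 in the other 3. All 14 markers, decorin included, had the lower mean in the epithelial class, but decorin was not separated. Of 12 smooth muscle and pericyte markers 1, Acta2, was separated, at 0.164, 0.062, 2.17 and 0.123 against 178, 1296, 108, 11.8 and 48.4 FPKM, and the summed level was 33.1 to 59.7 against 41.9 to 1815 FPKM. Myh11, the smooth muscle myosin, was at 0.033 FPKM or less in all libraries.

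Of 10 adipocyte markers none was separated, and their sum was 1.56 to 37.9 against 47.0 to 1349.9 FPKM. Fabp4 was at 1.67, 1.01, 20.6 and 0.668 against 331, 311, 885, 15.5 and 36.1 FPKM. It made up most of the sum except in 46295 and 47298 knockout, where the sums were 4.26 and 56.0 FPKM. In 47298 wild type 8 of the 10 were at 1 FPKM or more, against at most 3 in any other library. Adipoq was above 1 FPKM in that library alone, and Lep was at 0.021 FPKM or less throughout. The 10 endothelial markers summed to 0.379 to 2.53 against 0.384 to 6.80 FPKM, with Cdh5 at 0.014 FPKM or less. The 10 immune markers summed to at most 0.472 and 1.06 FPKM, with Cd3e listed at 0 throughout and Ptprc at 0.029 FPKM or less. Of the endothelial markers 1, Kdr, passed the filter. At 1 FPKM or more were 2 of the 10 in 47298 wild type and 1 each in 47298 knockout, 33373 and 33377. None of the immune markers passed the filter. The part of fibroblasts, smooth muscle cells or adipocytes in the differences was not tested.

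The 9 libraries did not fall into 2 even blocks. In the epithelial class 33373 was the highest of the 4 libraries for 406 of the 635 lower genes (63.9%), against 27.0% of all tested genes, and the lowest for 49.7% of the 821 higher genes, against 29.5%. In the mesenchymal class 33377 and 47298 knockout were the highest of 5 for 39.6% and 36.9% of the higher genes, against 18.0% and 24.5% of all tested genes, and the lowest for 35.0% and 40% of the lower ones, against 19.6% and 22.0%. Of the higher genes, 57.2 to 68.3% were at 10 FPKM or more in the epithelial libraries, 12.1 to 14.4% in the 45555 libraries and 47298 wild type, 22.4% in 47298 knockout and 21.0% in 33377. Of the lower genes, 69.3% and 61.3% were at that level in 45555 wild type and knockout, 69.8% in 47298 wild type, 47.7% in 47298 knockout, 50.4% in 33377, 26.5% in 33373 and 15.4 to 18.0% in the other epithelial libraries. The genes were chosen on these libraries, and these shares describe their order only. Without 47298 knockout and 33377, 1366 genes were separated and higher and 1256 lower. Leaving out libraries makes the no-overlap condition easier to meet whichever they are, and knockout libraries alone gave 1292 higher and 1096 lower.

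**Figure D4:**
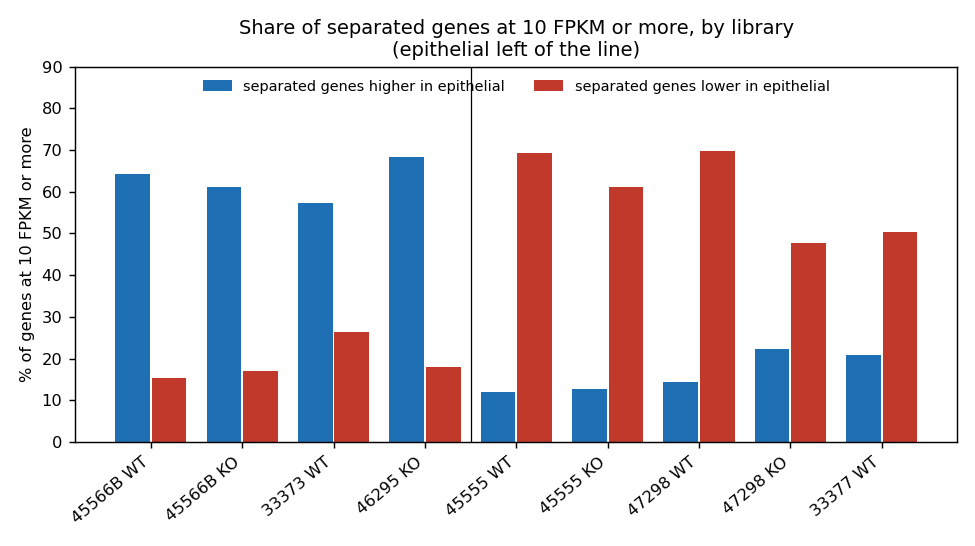
Share of the separated genes at 10 FPKM or more in each library, in blue for the 821 genes higher in the epithelial class and in red for the 635 lower ones. Bars left of the line are the epithelial libraries and right of it the mesenchymal ones. The red bar of 33373 (26.5%) was the highest of the epithelial class, and 47298 knockout (47.7%) and 33377 (50.4%) had the lowest red bars of the mesenchymal class.

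Within a line, wild type and knockout stayed in the same class but did not always stay close. In line 47298 the knockout library was above the wild type in 68.7% of the 821 higher genes, against 50.6% of all tested genes, and below it in 78.3% of the 635 lower genes, against 47.9%. In line 45555 the knockout was above the wild type in 42.6% of the higher genes and below it in 64.1% of the lower ones, against 45.3% and 52.5% of all tested genes. In line 45566B these shares were 39.3% and 35.0%, against 51.4% and 46.3%. Each pair is 1 library against 1 library, so these differences have no replicate check, and the 3 lines did not share a direction.

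Jak1, the kinase that the genotypes concern, was itself separated. It was at 16.1, 14.2, 19.4 and 23.0 FPKM in the epithelial libraries and 86.7, 74.4, 63.1, 27.5 and 54.6 FPKM in the mesenchymal ones, a difference of -1.63 (chromosome 4, 101152367 to 101265282, minus strand). Of the labelled knockout libraries, 45566B (14.2 FPKM) and 47298 (27.5 FPKM) were below all wild types of their class. The knockouts 46295 (23.0 FPKM) and 45555 (74.4 FPKM) were not. In lines 45566B, 45555 and 47298 the knockout was below the wild type of its own line. A value over the whole gene does not show whether part of it was deleted, so it checks no label. Of 11 JAK and STAT genes 10 passed the filter and Jak1 was the only one separated, with a median difference over the list of -0.07. Stat6 was close to it, at 31.8, 32.2, 48.4 and 42.1 against 52.1, 53.7, 73.6, 59.1 and 64.5 FPKM, without overlap but with a difference of -0.65.

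Jak1 status was not used to form the classes, so its effect could be tested within each: 2 wild-type and 2 knockout libraries were epithelial, and 3 and 2 mesenchymal. Each class held 1 of the wild types 33373 and 33377, whose columns are named differently and whose lines have no knockout library. No knockout has such a column name, so column naming and Jak1 status are partly mixed. With limma and Benjamini-Hochberg adjustment over 12198 genes, 4 genes (0.0328%) passed an adjusted p of 0.05 in the epithelial class, and none (0%) in the mesenchymal class. The 4 were the microRNA genes Mir6991, Mir106b, Mir1894 and Mir328. Each was above 0 only in the epithelial wild types 45566B and 33373, and passed the filter through these 2 values alone. In that order Mir106b was at 36.4 and 29.9, Mir1894 at 77.7 and 31.4 and Mir328 at 31.5 and 15.5 FPKM. With all other libraries listed at 0, the spread behind these calls is set by zeros, and nothing is read from them. At an unadjusted p under 0.05 there were 164 genes in the epithelial class, 31 higher and 133 lower in the knockouts, and 261 in the mesenchymal class, 74 higher and 187 lower. The product term, which asks whether the knockout effect differs between classes, was called for 1 gene (0.0082%), Mir6991 (-6.72, SE 0.42, adjusted p = 0.00782 by limma), and 138 genes had an unadjusted p under 0.05.

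Mir6991 was at 94.0 and 116 FPKM in the epithelial wild types 45566B and 33373 and listed at 0 in the other 7 libraries. It passed the filter through these 2 values alone, and with all 5 mesenchymal libraries at 0 the product term restates the epithelial difference. Genes shorter than a usual fragment take large FPKM from few fragments. With short noncoding RNA genes left out no gene was called by limma in either class or for the product term, where the smallest adjusted p were 0.760, 0.379 and 1.00. With the line as a block the counts were 0, 0 and 0. The Mir6991 call was also lost at a pseudocount of 0.1 and without the library 47298 wild type, and its adjusted p ranged from 0.00341 to 0.392 over the alternatives.

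Among protein-coding genes the largest contrast in knockout effect by p was Acot1, an acyl-CoA thioesterase, at 20.8, 26.8, 22.1 and 34.0 FPKM in the epithelial libraries and 9.67, 1.86, 13.8, 1.26 and 10.5 FPKM in the mesenchymal ones. Its knockout effect was 0.48 (SE 0.27) in the epithelial class and -2.26 (SE 0.25) in the mesenchymal class, and the difference of 2.74 (SE 0.37) did not pass (adjusted p = 0.254 by limma). Zfp36l1, which promotes decay of AU-rich mRNAs, was at 42.2, 45.2, 52.9 and 46.0 against 46.1, 15.4, 72.4, 11.7 and 81.6 FPKM, with effects of -0.05 (SE 0.33) and -2.19 (SE 0.30) whose difference did not pass either (adjusted p = 1.00 by limma). In both genes the mesenchymal knockouts were below all 3 mesenchymal wild types, and the epithelial libraries were close together. Slc1a1, a glutamate transporter, was called neither in the epithelial class nor for the product term (limma adjusted p = 1.00 for both). It was at 22.8, 8.05, 28.2 and 5.08 FPKM in the epithelial libraries, where the wild types were the higher 2, and at most 0.03 FPKM in the mesenchymal ones, where no effect could be measured.

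Interferon-stimulated genes, whose induction needs Jak1, had lower means in the knockouts of both classes, but none passed the test within a class. Of the 19 that passed the filter, 18 had a lower mean in the epithelial knockouts and 19 in the mesenchymal ones, against 48.1% and 50.5% of all tested genes. Their median effects were -3.45 and -2.24, against 0.01 and -0.00 over all tested genes. The smallest limma adjusted p was 1.00 in both classes, and 14 and 7 of the 19 had an unadjusted p under 0.05. The mesenchymal value includes the wild type 33377, which has no knockout partner. The fit had no term for the line, so differences between lines add to the spread behind these p-values. Within a line the median difference was -0.996 in 45555 (19 of 19 lower), -1.29 in 47298 (17 of 19, with Ifit2 and Ifih1 higher in the knockout) and -3.32 in the epithelial line 45566B (19 of 19). The difference between classes had a median of -0.94 over the 19, no gene had an unadjusted interaction p under 0.05, and the smallest limma adjusted interaction p was 1.00. Irf7, the factor that amplifies the response, was at 386, 7.16, 203 and 6.07 FPKM in the epithelial libraries and 4.18, 0.226, 11.6, 2.49 and 128 FPKM in the mesenchymal ones. Its effects were -5.21 (SE 1.36) and -3.30 (SE 1.24), and their difference of -1.91 (SE 1.84) was not called. The ubiquitin-like Isg15 was at 287, 22.4, 191 and 17.0 against 12, 1.64, 34.8, 8.14 and 285 FPKM, and the surface protein Bst2 at 2125, 86.1, 1101 and 108 against 34.0, 19.3, 116, 112 and 875 FPKM. In each of the 3, the mesenchymal wild type 33377 was near the epithelial wild types, and the 45555 and 47298 wild types were well below it. None of the 19 was separated by class.

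**Figure D5:**
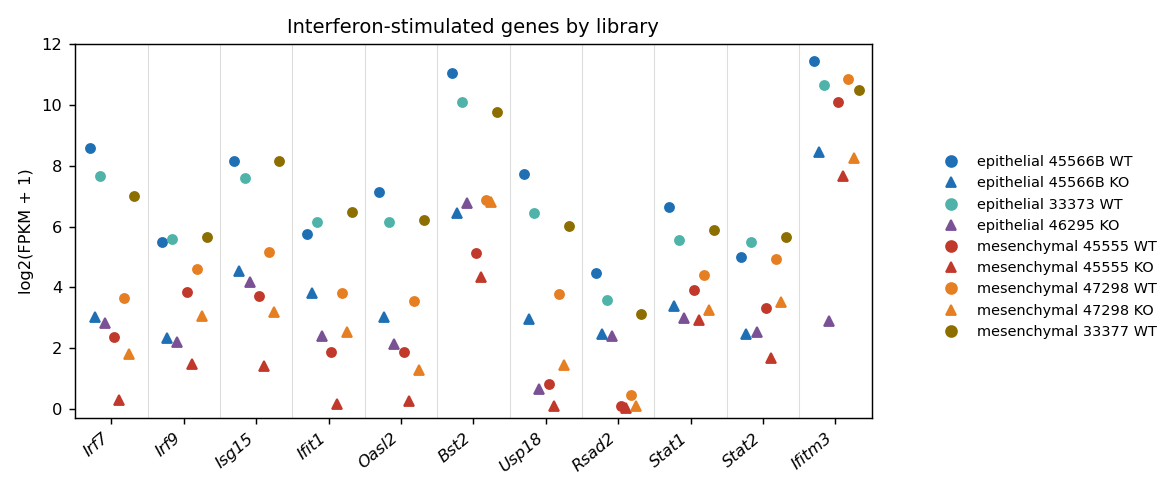
Level of 11 interferon-response genes in each library as log2(FPKM + 1), with circles for wild type, triangles for knockout, colours for lines, and the epithelial libraries left of the mesenchymal ones within each gene. The epithelial wild types and 33377 were the highest for Irf7 (128 to 386 FPKM), and the 45555 and 47298 libraries were at 11.6 FPKM or less.

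Proliferation genes overlapped between the classes. All 15 listed replication and mitosis genes passed the filter and had the higher mean in the epithelial libraries, but none was separated, and the median difference was 0.43. Mki67, a marker of cycling cells, was at 73.5, 73.3, 12.2 and 29.3 FPKM in the epithelial libraries and 33.6, 60.1, 12.9, 23.6 and 39.7 FPKM in the mesenchymal ones, and the replicative helicase subunit Mcm2 at 57.0, 53.8, 23.5 and 36.3 against 24.0, 71.0, 11.3, 29.7 and 67.8 FPKM. Both classes thus held libraries at the low and the high end.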

How the data were processed

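The libraries were made from total RNA with oligo-dT priming and a TruSeq RNA kit, per the labels' protocols. The authors deposited FPKM per gene symbol, and the submitters' processing notes name cutadapt, TopHat2 2.1, Cufflinks 2.2, Cuffnorm and build mm10. The annotation, the filters and the strand setting were not given in the sources used here. Antisense and overlapping genes cannot be told apart. All values came from the table of 9 libraries. A smaller table repeats the values of 4 of them. Of 24346 genes, 27 had names turned into dates, and 4 rows with a repeated name were left out.

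Libraries were classed by Epcam (100 FPKM), values were taken as log2(FPKM + 1), and genes whose mean reached 1 FPKM were kept. Fold differences on this scale understate low genes. Classes were described without a test. Jak1 status within class and the product term were fitted by limma 3.58.1 under R 4.3.3 (trend, two-sided, Benjamini-Hochberg over 12198 genes, 5 residual degrees of freedom), after the fit had been tested on simulated data. Libraries of a line are paired by that line in the labels, and their deviations from the group means correlated at 0.483 (45555), 0.411 (45566B) and 0.146 (47298). The main fit did not use this pairing.

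The members and the 27 gene lists were chosen with earlier results of these data known. Named genes were a core set, up to 5 separated members per list with the largest difference, the 12 largest differences in each direction (without short noncoding RNA and unnamed genes), and the called genes or 5 smallest p of each limma test. Not all of them are reported, and 2 genes of the lists were left out of the lists and are not reported here. Crb3, Ocln, Ovol2, Klf5, Cdh3, Dsc3, Col5a2, Col11a1, Ifit2, Ifih1, Tjp1, Pkp2, Perp, Spint2, Cd24a, Krt5, Krt19, Klf4, Gata3, Prrx1, Cd44, Col1a2, Col18a1, Timp1, Lama5, Itgb1, Egfr, Met, Axl, Stat6, Bst2, Isg15, Irf7, Mki67, Mcm2 and the markers of other cell types outside the rule were named after their values were seen. Gene positions are from GENCODE on GRCm38. Alternatives were another pseudocount, no filter, upper-quartile scaling, no short noncoding RNA genes, other difference minimums, line means, 1 genotype only, the line as a block, and leaving out libraries.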

Additional observations from a re-analysis of the deposited data

Results flagged for a closer look

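Among 198 sets of 4 or 5 libraries (1 gene in 1 class, reaching 1 FPKM), 32 had a highest or lowest library whose gap to the next one took up most of the range on the log2(FPKM + 1) scale. About 1 in 20 such sets is picked out by chance. In 16 of the 32 it was 33373 standing above the other epithelial libraries. Its values in FPKM were 3.10 for Lox, 66.4 for Col6a1, 32.0 for Col6a2, 5.10 for Fbn1, 78.3 for Dcn, 85.6 for Col1a2, 19.5 for Fstl1, 865 for Fn1 and 2.17 for Acta2 among matrix and cytoskeleton genes. They were 4.88 for Zeb1, 4.56 for Zeb2, 2.28 for Snai2, 5.07 for Prrx1 and 11.8 for Klf4 among transcription factors, and 6.95 for Pdgfra and 24.3 for Pdgfrb among receptors. The same library was the lowest of its class for Dsg2, at 17.5 FPKM.

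In the mesenchymal class 33377 stood above the other 4 libraries for 7 genes, 3 of them secretory (Ltf at 3.21, Csn3 at 14.4 and Wfdc18 at 7.25 FPKM) and 4 not (Cdh1 at 7.02, Dsc2 at 1.78, Tfap2c at 2.53 and Wnt5b at 1.14 FPKM). The library 47298 knockout was far below the others for Lox (68.8 FPKM), Pcolce (104 FPKM), Snai1 (0.845 FPKM) and Twist2 (0.811 FPKM), and above them for Lamb3 (2.38 FPKM). The other far libraries were 45566B wild type, the highest epithelial one for Cd44 (98.5 FPKM), and 46295, the lowest for Cd24a (338 FPKM) and the highest for Mmp15 (41.0 FPKM).

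The product term of Jak1 status and class was called for Mir6991 (-6.72 on the log2(FPKM + 1) scale, limma adjusted p = 0.00782), and the call was lost with the line as a block. All 5 mesenchymal libraries were listed at 0, so no knockout effect could be seen there and a difference between the classes is not shown.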

How the results depend on the processing

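Of 1872 differences between classes under the alternatives (117 genes), 1823 moved by less than the spread between libraries, 49 moved by more, and none of a separated gene changed sign. For a separated gene the sign cannot change when libraries are left out or averaged, or with another pseudocount. Only upper-quartile scaling could have changed it, so the lack of sign changes is no check of the other alternatives. The counts of separated genes (821 higher, 635 lower) were 484 and 286 with a minimum difference of 2, 1292 and 1096 in knockout libraries alone, and 1366 and 1256 without 47298 knockout and 33377. The lower count was 1090 in wild types alone, 1020 with no minimum difference and 1159 without 33373 and 33377. With 1 library left out the counts ranged from 822 to 1075 higher and from 613 to 982 lower, the last without 33373. Settings with fewer libraries ease the no-overlap condition, so their counts are not on a par with those of all 9.

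The limma calls for epithelial knockouts, mesenchymal knockouts and the product term were 4, 0 and 1. With the line as a replicate block, which uses the pairing of libraries within a line, they were 0, 0 and 0. A pseudocount of 0.1 gave 0, 1 and 1, no filter 5, 0 and 2, and leaving out short noncoding RNA genes 0, 0 and 0. Without 33373 and 33377 they were 26, 6 and 20. With 1 library left out they ranged from 2 to 24, from 0 to 10 and from 0 to 23, and the fit then pools the spread over all groups. The cause was not tested. The depth of the libraries is unknown, so what it limits could not be given.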
